A study of Homo sapiens with 8 samples.

Results

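The urokinase plasminogen activation system was described through 4 genes, PLAU, PLAUR, PLAT and SERPINE2, which were chosen by name and found by symbol among the 58302 genes of the count table. PLAU encodes urokinase and PLAT encodes tissue-type plasminogen activator, the serine proteases that cut plasminogen into plasmin. PLAUR encodes the urokinase receptor, a cell surface protein held by a lipid anchor, and SERPINE2 encodes protease nexin 1, a serpin that inhibits urokinase, tissue-type plasminogen activator and thrombin. All 4 passed the filter on low counts.

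Plasmin formed at the cell surface degrades fibrin and extracellular matrix and activates other matrix proteases. Urokinase is secreted as an inactive single chain, binds its receptor and is cut there into the active form, while serpins bind the active protease and the complex is taken up by receptors of the LDL receptor family. In bladder cancer, urokinase and its receptor are best known for their part in invasion.

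RNA of xenograft tumours was sequenced in 8 libraries, 4 labelled DDR1 and 4 labelled control. DDR1 libraries came from tumours of T24 cells with enforced expression of DDR1, a receptor tyrosine kinase activated by collagen, and control libraries from tumours of T24 cells labelled as control. T24 is an established human bladder cancer cell line. The labels give no mouse strain, tumour site, age of the tumours, vector, clone or promoter, and do not say whether libraries of 1 group came from separate animals, so the p-values speak of the spread among these 8 libraries, which may be technical. DDR1 replicates 2, 3 and 4 share a title prefix, as do control replicates 3 and 4. The title of control replicate 2 begins like those of control replicates 3 and 4, which add a suffix. Control replicate 2 was kept apart from them where libraries sharing a prefix were summed, and the labels do not say how the 3 are related. All DDR1 titles name lane 8, while 2 control titles name lane 7 and 2 name none, so lane and group cannot be told apart.

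Library totals ran from 20789503 to 32271031 expected counts in the DDR1 group and from 13716286 to 22736674 in controls. DDR1 itself stood at 159, 343, 427 and 810 CPM in DDR1 replicates 1 to 4, against 138, 110, 210 and 149 CPM in control replicates 1 to 4. CPM, counts scaled to library size, were adjusted here by TMM, which sets libraries to a common scale by their typical gene. The library labelled DDR1 replicate 1 thus lay inside the control range, and the fold change of each member is also given without it. The log2 fold change of DDR1 was 1.52 (standard error 0.43, edgeR unadjusted p = 0.00612, adjusted p = 0.9998, exact permutation p = 0.0571), and 1.79 without that library. Because that library had the lowest DDR1 level of its group, leaving it out was bound to raise this value, which is no separate estimate. The T24 marker list, 6 epithelial genes and VIM, a mesenchymal gene, was present in full, with 7 of 7 genes above 0 in every library. Its summed level was 1260 to 3655 CPM in DDR1 libraries and 1599 to 2337 CPM in controls, of which VIM made up 150 to 1096 CPM in DDR1 libraries and 188 to 564 CPM in controls.

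Short stretches before the RefSeq start sites of 3 members are shown so that the letters before PLAU, PLAUR and SERPINE2 stand beside their values over the libraries, and PLAT is named only. They come from RefSeq on GRCh38.p14, read 5′ to 3′ on the strand of the gene, and the capitals mark the motif letters found there. The PLAUR stretch (chr19:43670339-43670365, minus strand) holds the AP-1 letters TGANTCA, the PLAU stretch (chr10:73911077-73911101, plus strand) the SP1 letters GGGCGG and the SERPINE2 stretch (chr2:224031525-224031549, minus strand) the CCAAT box letters.
PLAUR: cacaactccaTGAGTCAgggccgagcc
PLAU: ggagGGGCGGcgccgGGGCGGgccc
SERPINE2: cttccgtgtaCCAATggctgtgggc

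Motifs were searched on both strands in the 250 bases before each of the 5 RefSeq start sites of PLAU, PLAUR and SERPINE2. The AP-1 letters TGANTCA occurred in the PLAUR window, at positions -186 to -180 from the start, and in none of the windows of PLAU or SERPINE2, while 6.57% of the 35116 windows of all genes hold them. The window of the downstream PLAU start had the SP1 letters GGGCGG at 3 places, letters that 42.6% of all windows hold. SERPINE2 had them too, at 2 places in its upstream window and 1 in its downstream window. At the downstream SERPINE2 start the CCAAT letters stood at 7 places, on alternating strands, and the upstream PLAU window held them at 1 place. Of all windows, 32% hold CCAAT. In the GENCODE annotation, all 250 bases of the PLAUR window lie in PLAUR exons, and all 250 of either PLAU window lie in annotated exons, those of C10orf55 at either start and also of PLAU at the downstream start. The upstream SERPINE2 window has 164 bases in annotated exons and the downstream one 0. A match of letters is a description, and counts per gene do not show which start was used.

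PLAU had the highest mean CPM of the 4 genes in both groups, although PLAT exceeded it in DDR1 replicates 1 and 4, where PLAU was lowest. It stood at 104, 317, 462 and 124 CPM in DDR1 replicates 1 to 4, against 430, 293, 308 and 603 CPM in control replicates 1 to 4. DDR1 replicates 1 and 4 were below every control, and replicates 2 and 3 lay within the control range. PLAU (ENSG00000122861, GRCh38 chromosome 10, 73909177 to 73917497, plus strand) averaged 252 ± 170 CPM in DDR1 libraries and 408 ± 144 CPM in controls (SD, n = 4 each). Its log2 fold change of -0.70 (standard error 0.47) did not pass edgeR's quasi-likelihood test, with an unadjusted p of 0.17 and an adjusted p of 0.9998. An exact permutation of the group labels on log2 CPM, two-sided, gave p = 0.257, and its 70 orderings can give no p below 0.0286. Leaving out the library labelled DDR1 replicate 1 gave a log2 fold change of -0.44, as did leaving out control replicate 4. Leaving out DDR1 replicate 3 gave -1.17, and leaving out DDR1 replicate 4 gave -0.46.

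The PLAU gene overlaps C10orf55, a gene on the opposite strand, and the deposited PLAU values were not whole numbers in any of the 8 libraries. C10orf55 stood at 4.17 to 6.88 CPM in DDR1 libraries and 4.76 to 8.53 CPM in controls, far below PLAU. The protocols do not mention strand marking, so reads of PLAU and of this overlapping gene cannot be told apart where both are annotated. PLAUR, PLAT and SERPINE2 had whole numbers in every library.

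PLAUR, the receptor, had the lowest CPM of the 4 genes and the largest log2 fold change among them. It held 12.1, 25.6, 27 and 8.45 CPM in DDR1 replicates 1 to 4, against 29, 18.7, 54.9 and 42.9 CPM in control replicates 1 to 4. Control replicates 1, 3 and 4 exceeded every DDR1 library, but control replicate 2 lay below DDR1 replicates 2 and 3, so the groups overlapped. PLAUR (ENSG00000011422, chromosome 19, 43646095 to 43670547, minus strand) averaged 18.3 ± 9.4 CPM in DDR1 libraries and 36.4 ± 15.8 CPM in controls (SD, n = 4 each). The log2 fold change was -0.99 (standard error 0.43). Its unadjusted edgeR p was 0.0467 and its adjusted p 0.9998, so it did not pass over all genes, among which it ranked 731 by p. The exact permutation p, two-sided, was 0.114. With the library labelled DDR1 replicate 1 left out, the log2 fold change was -0.84. It was -0.38 without the controls that name no lane and -1.38 without the lane 7 controls, and the adjusted edgeR p was 0.9371, 0.9997 and 0.8719 in these 3 fits.

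**Figure D1:**
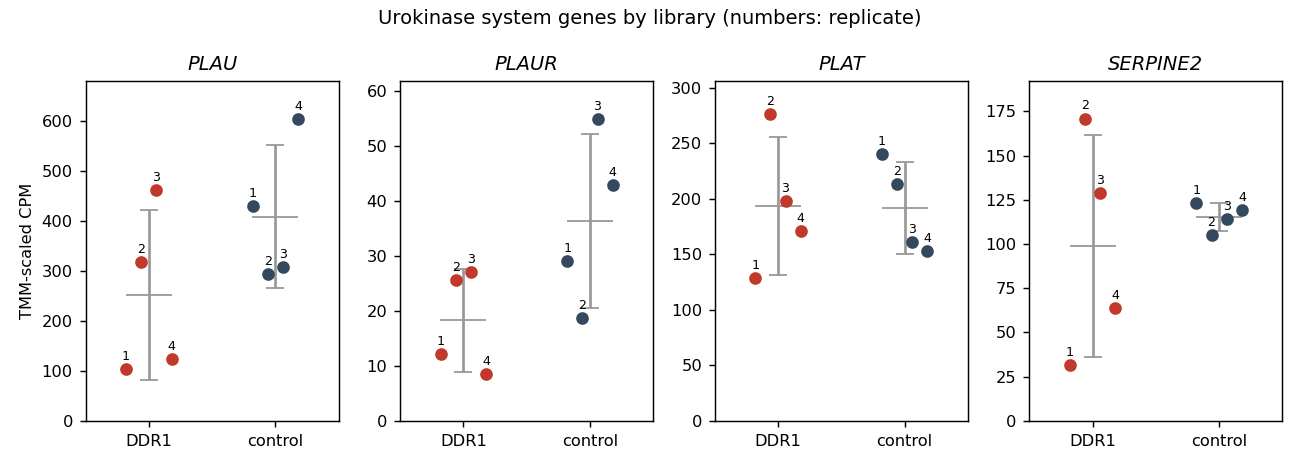
TMM-scaled CPM of PLAU, PLAUR, PLAT and SERPINE2 in each of the 8 libraries, with DDR1 libraries left and controls right in each panel. Points are libraries numbered by replicate, grey bars the mean and SD, and DDR1 replicates 1 and 4 lie below every control for PLAU, PLAUR and SERPINE2.

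PLAT, the tissue-type activator, had nearly equal means in both groups. It stood at 129, 276, 198 and 171 CPM in DDR1 replicates 1 to 4, against 240, 213, 161 and 153 CPM in control replicates 1 to 4. The lowest and the highest library both belonged to the DDR1 group, and the controls lay between them. PLAT (ENSG00000104368, chromosome 8, 42175233 to 42207724, minus strand) averaged 193 ± 61.7 CPM in DDR1 libraries and 192 ± 41.6 CPM in controls (SD, n = 4 each). Its log2 fold change was 0.01 (standard error 0.25, edgeR unadjusted p = 0.961, adjusted p = 0.9998, exact permutation p = 0.971). The sign of this small value turned with the libraries used: leaving out DDR1 replicate 2 gave -0.21, and leaving out the library labelled DDR1 replicate 1 gave 0.16.

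SERPINE2, the inhibitor, differed in spread more than in mean. It held 31.7, 171, 129 and 63.9 CPM in DDR1 replicates 1 to 4, against 123, 105, 114 and 119 CPM in control replicates 1 to 4. DDR1 replicates 1 and 4 lay below all controls, and replicates 2 and 3 lay above all of them. SERPINE2 (ENSG00000135919, chromosome 2, 223975112 to 224039319, minus strand) averaged 98.8 ± 62.6 CPM in DDR1 libraries and 115 ± 7.7 CPM in controls (SD, n = 4 each). The log2 fold change of -0.22 (standard error 0.43) did not pass (edgeR unadjusted p = 0.609, adjusted p = 0.9998, exact permutation p = 0.429). Leaving out the library labelled DDR1 replicate 1 gave 0.07, and leaving out DDR1 replicate 2 gave -0.62.

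The spread of SERPINE2 was described after its values were seen and has no test. Its log2 CPM had an SD of 1.09 in DDR1 libraries and 0.10 in controls, and 1.38% of all tested genes had as large an excess of the DDR1 SD over the control SD. For PLAU the SDs were 1.04 in DDR1 libraries and 0.48 in controls, a difference that 4.69% of genes reached. PLAUR and PLAT differed less in spread, with SDs of 0.82 and 0.45 in DDR1 libraries and 0.68 and 0.31 in controls. The median gene had an SD of 0.36 in DDR1 libraries and 0.37 in controls.

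None of the 4 members passed at an adjusted p under 0.05 with edgeR, and 0 of all 18973 tested genes (0%) did. At an unadjusted p under 0.05 there was 1 member, PLAUR, beside 4.17% of all genes in either direction and 2.24% in the direction lower in DDR1. limma-voom, limma-trend and DESeq2 called 0 members, and over all genes limma-voom and limma-trend called 0 and DESeq2 16 (0.0843%). The groups did not overlap for 0 members, and for 2.4% of all genes, 1.27% higher in DDR1 and 1.13% lower. DDR1 replicates 1 and 4 lay below every control, with replicates 2 and 3 not below, for PLAU, PLAUR and SERPINE2. That pattern was noticed after the values were seen, and 5.09% of tested genes have it.

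**Figure D2:**
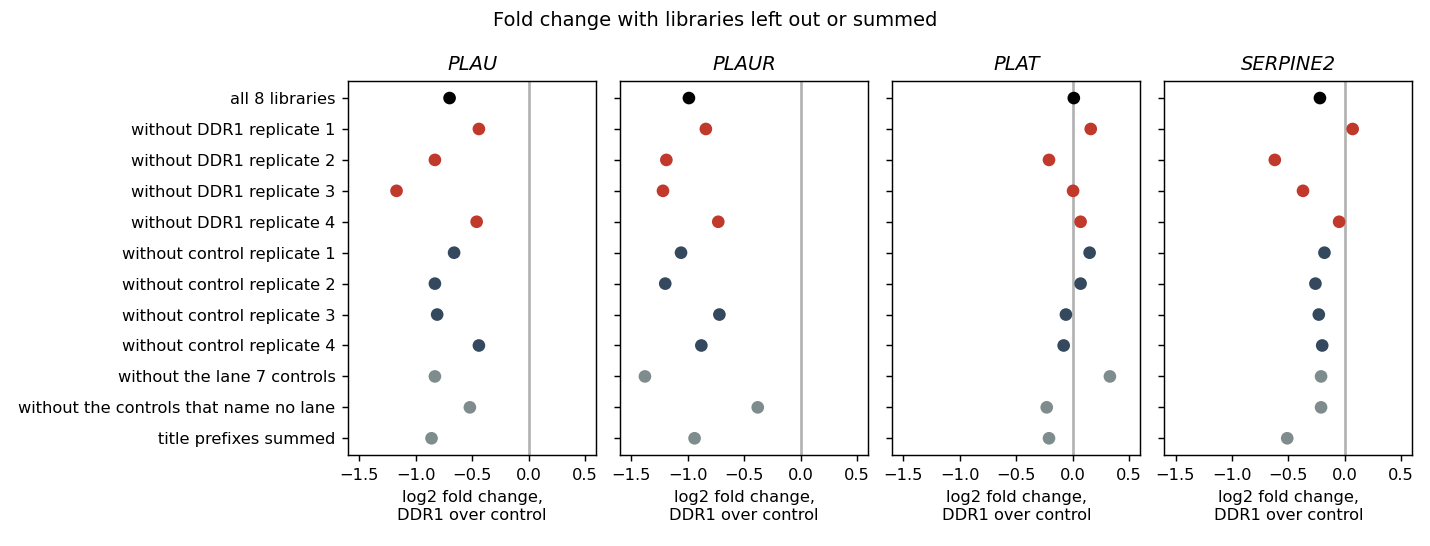
Log2 fold change of each gene, DDR1 over control, with all 8 libraries and with each library left out. Further rows leave out either pair of controls or sum libraries that share a title prefix. PLAU and PLAUR stay below 0 in every row, whereas PLAT lies on both sides of 0 and SERPINE2 reaches 0.07 without DDR1 replicate 1.

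Per exon length the 4 genes kept 1 order in every library. The level was 85.3 ± 57.7 CPM per kb of exon in DDR1 libraries and 138 ± 48.7 in controls for PLAU, and 29.2 ± 9.33 in DDR1 libraries and 29 ± 6.28 in controls for PLAT (SD, n = 4 each). It was 11.1 ± 7.05 in DDR1 libraries and 13 ± 0.866 in controls for SERPINE2, and 4.1 ± 2.11 in DDR1 libraries and 8.16 ± 3.55 in controls for PLAUR. Exon length here is the summed length of all annotated exons of a gene, so a gene with long exons that tumours do not use has its level understated.

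Per kb of exon, PLAU exceeded PLAT, PLAT exceeded SERPINE2 and SERPINE2 exceeded PLAUR, each in 8 of 8 libraries. The order of PLAU and PLAT depended on this division, since PLAT had the higher CPM in DDR1 replicates 1 and 4. The closest neighbours were SERPINE2 and PLAUR in control replicate 3, at 12.9 and 12.3 CPM per kb. The ratio of PLAU to PLAUR levels per kb was 19.9 ± 5.46 in DDR1 libraries and 19 ± 7.05 in controls (SD, n = 4 each), so the mean of the ratio differed between groups by less than its spread. The ratio of PLAU to PLAT was 2.81 ± 1.68 in DDR1 libraries and 5.05 ± 2.56 in controls, and that of PLAU to SERPINE2 was 8.02 ± 2.69 in DDR1 libraries and 10.6 ± 3.3 in controls.

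**Figure D3:**
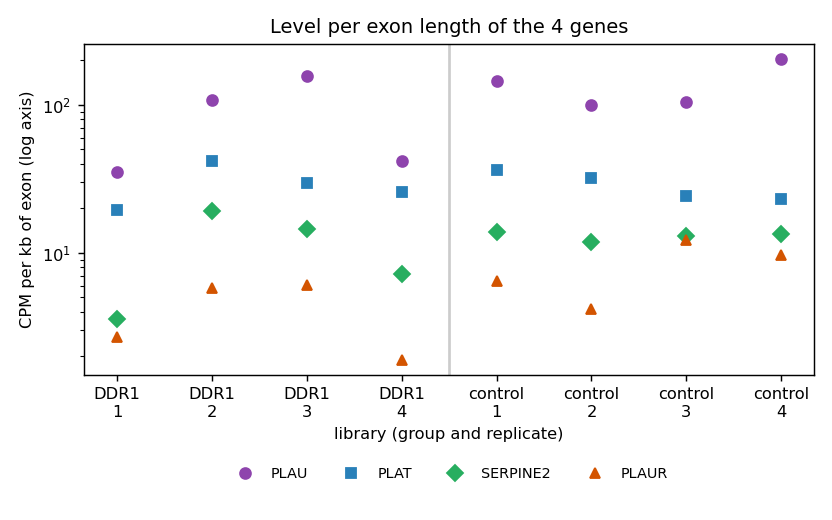
CPM per kb of exon for the 4 genes in each library, on a log axis, with DDR1 libraries left of the grey line and controls right of it. In all 8 libraries the order from the top is PLAU, PLAT, SERPINE2 and PLAUR, and PLAU comes closest to PLAT in DDR1 replicates 1 and 4.

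PLAU had its highest correlations among the members with SERPINE2 and PLAUR, and these did not pass after adjustment. Of 10 relations computed over log2 CPM of 8 libraries, PLAU with SERPINE2 had Pearson's r = 0.845 (exact permutation p = 0.0119, adjusted p = 0.0817) and Spearman's rho = 0.786 (exact permutation p = 0.0279, adjusted p = 0.277). PLAU with PLAUR had r = 0.815 (exact permutation p = 0.0163, adjusted p = 0.0817) and rho = 0.714 (exact permutation p = 0.0576, adjusted p = 0.277). None of the 10 passed after adjustment. Without DDR1 replicates 1 and 4, the libraries farthest from the median of PLAU, r was -0.046 for SERPINE2 and 0.292 for PLAUR over 6 libraries. Both r values were thus high only with those libraries included. Leaving out libraries by their PLAU level narrows its range, which by itself can lower r. These values therefore do not decide whether either relation holds without them. With group means taken out, r was 0.834 for PLAU with SERPINE2 and 0.726 for PLAU with PLAUR. No values are given by lane, since lane 8 holds the DDR1 group itself, 2 controls name lane 7 and 2 name none.

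PLAT went with SERPINE2 at r = 0.743 (exact permutation p = 0.0277, adjusted p = 0.0922) and with PLAU at r = 0.424 (exact permutation p = 0.298, adjusted p = 0.529). For PLAT with SERPINE2, rho was 0.667 (exact permutation p = 0.0831, adjusted p = 0.277) and r was 0.253 without DDR1 replicates 1 and 2. Leaving out the libraries farthest from the median of the first gene turned r to -0.408 for PLAU with PLAT, -0.718 for PLAUR with PLAT and -0.131 for PLAUR with SERPINE2. PLAUR with PLAT had r = 0.139 and PLAUR with SERPINE2 r = 0.676 (exact permutation p = 0.737 and 0.0646, adjusted p = 0.921 and 0.161). For PLAU with PLAT, PLAUR with PLAT and PLAUR with SERPINE2, rho was 0.238, -0.024 and 0.5. Their rho values had exact permutation p-values of 0.582, 0.977 and 0.216, and adjusted p-values of 0.97, 0.977 and 0.54.

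For the level of DDR1 itself, none of the 4 relations passed. Its r was -0.302 with PLAU, -0.403 with PLAUR, 0.075 with PLAT and 0.002 with SERPINE2, with exact permutation p-values of 0.467, 0.317, 0.861 and 0.997 and adjusted p-values of 0.667, 0.529, 0.956 and 0.997. The rho values were -0.095, -0.262, -0.048 and 0.119 in the same order, with exact permutation p-values of 0.84, 0.536, 0.935 and 0.793. Without DDR1 replicates 3 and 4, r was -0.034, 0.23, 0.313 and 0.338. The libraries low in PLAU held the lowest and the highest DDR1 level of their group, 159 CPM in replicate 1 and 810 CPM in replicate 4.

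The genes most like each member over the 8 libraries were named by the highest Pearson's r of log2 CPM among 11893 other genes with a mean of at least 5 CPM, as a description with no test. For PLAU they were CTSB (r = 0.986), SGIP1 (0.985) and CYLD (0.98). CTSB encodes cathepsin B, a lysosomal protease that can cut pro-urokinase. It stood at 176, 577, 974 and 185 CPM in DDR1 replicates 1 to 4, against 683, 505, 553 and 1538 CPM in control replicates 1 to 4. The order of the 8 libraries by CTSB was the same as that by PLAU, with control replicate 4 on top and DDR1 replicates 1 and 4 at the bottom. SERPINE2 and PLAUR ranked 277 and 383 among the genes most like PLAU.

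For PLAUR the nearest genes were AC245297.3, a long non-coding RNA gene (r = 0.979), TGFA (0.978) and SLC46A1 (0.978). TGFA encodes transforming growth factor alpha, a ligand of the EGF receptor, and held 42.7, 73.3, 72 and 25.1 CPM in DDR1 replicates 1 to 4, against 86.9, 55.3, 131 and 88.3 CPM in control replicates 1 to 4. For PLAT, GALNT1 (0.962) and NPTN (0.948) ranked highest. For SERPINE2 they were SEMA3A (0.964), a secreted semaphorin, PDLIM5 (0.963) and C1QTNF1 (0.955). No member was among the top 3 of another.

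**Figure D4:**
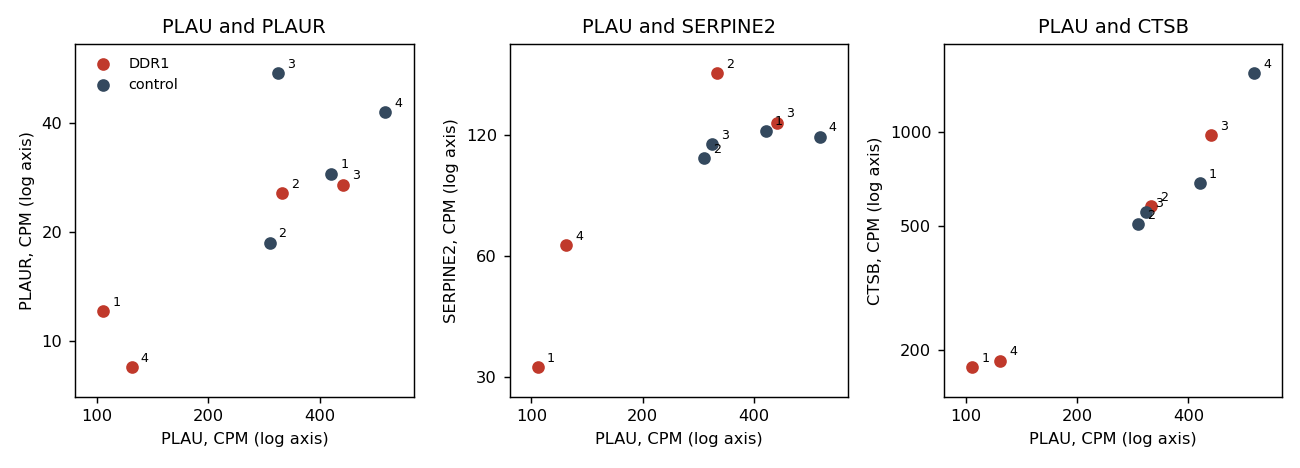
CPM of PLAUR, SERPINE2 and CTSB against PLAU in the 8 libraries, all on log axes, with DDR1 libraries in red and controls in dark blue, numbered by replicate. DDR1 replicates 1 and 4 sit apart at low PLAU in each panel, and CTSB follows PLAU most closely (r = 0.986).

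Among other genes of the pathway, taken from 8 lists, 60 of 73 passed the filter, of which 25 had a log2 fold change above 0 and 35 below, members included, while 50.5% of all tested genes lay below 0. None passed at an adjusted p under 0.05 with edgeR, limma-voom, limma-trend or DESeq2, and 6 of the 60 had an unadjusted edgeR p under 0.05, beside 4.17% of all tested genes. Their median log2 fold change was -0.08, and the median of all tested genes was 0. EGFR was the 1 gene of these 60 whose groups did not overlap, beside 2.4% of all tested genes.

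Inhibitors of plasminogen activators and of plasmin, SERPINE2 included, had 4 tested genes above 0 and 3 below, a median of 0.15, and 0 calls. The sign of this median turned with the setting, at -0.11 with limma-voom, -0.12 with limma-trend and -0.26 without DDR1 replicate 3. The intracellular serpins SERPINB6 and SERPINB8 had log2 fold changes of 0.15 (standard error 0.19) and -0.22 (0.21).

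Plasminogen itself, PLG, is made mainly by the liver and was under 1 CPM in every library. Of its surface binding partners, ANXA2, ENO1 and S100A10 were abundant in both groups and PLGRKT was low, with log2 fold changes between 0.05 and 0.15 for all 4 tested genes and 0 calls. ANXA2, annexin A2, averaged 1970 ± 580 CPM in DDR1 libraries and 1794 ± 610 CPM in controls (SD, n = 4 each). S100A10, which pairs with annexin A2 to bind plasminogen, averaged 253 ± 82.1 CPM in DDR1 libraries and 245 ± 83.5 CPM in controls. ENO1, enolase 1, averaged 1753 ± 376 CPM in DDR1 libraries and 1578 ± 704 CPM in controls, and PLGRKT, a plasminogen receptor of the membrane, 6.91 ± 1.46 and 6.28 ± 1.24 CPM. Without the 2 controls that name no lane, ANXA2, S100A10 and ENO1 stood at -0.16, -0.27 and -0.14 on the log2 scale. Without the lane 7 controls they stood at 0.53, 0.50 and 0.55, so the values depended on which pair of controls was used.

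The list of clearance receptors and surface partners of the urokinase receptor had 6 tested genes above 0 and 8 below, a median of -0.04, and 0 calls. EGFR, which can signal together with the urokinase receptor, held 481 to 634 CPM in DDR1 libraries and 336 to 403 CPM in controls, so the groups did not overlap. Its log2 fold change was 0.52 (standard error 0.16, edgeR unadjusted p = 0.0083, adjusted p = 0.9998). LRPAP1, the chaperone of the LDL receptor family, averaged 59.1 ± 2.61 CPM in DDR1 libraries and 81 ± 19.7 CPM in controls (log2 fold change -0.45, standard error 0.18, edgeR unadjusted p = 0.0349, adjusted p = 0.9998). The integrin genes ITGA3 and ITGB1, whose products partner the urokinase receptor, had log2 fold changes of -0.30 (standard error 0.29) and 0.25 (0.26).

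The receptor list, PLAUR with related LY6 domain genes, had 0 tested genes above 0 and 6 below, a median of -0.68 and 0 calls. Leaving out control replicate 3 gave a median of -0.08, and it was -0.15 without the controls that name no lane and -0.24 among genes with at least 5 CPM in 4 libraries. LYPD1 averaged 1.17 ± 1.43 CPM in DDR1 libraries and 3.91 ± 3 CPM in controls, and LYPD3 4.11 ± 2.42 and 6.7 ± 6.95 CPM. LYPD3 was 0.28 on the log2 scale without control replicate 3, against -0.71 with all libraries. CD59, which blocks the complement attack complex, was the most abundant at 552 ± 211 CPM in DDR1 libraries and 589 ± 246 CPM in controls.

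Proteases that cut pro-urokinase had 4 of 4 tested genes below 0, a median of -0.53 and 0 calls, while 6 of the 9 genes listed were under 1 CPM in every library. F12, which encodes factor XII, is among both the 4 and the 6, so the count and the median include a gene near the floor. It averaged 0.428 CPM in DDR1 libraries and 0.663 CPM in controls (log2 fold change -0.62, standard error 0.74). The median was -0.25 without DDR1 replicate 3 and -0.27 with libraries summed that share a title prefix. CTSB had a log2 fold change of -0.78 (standard error 0.59), ST14, the membrane protease matriptase, -0.44 (0.39), and CTSL, cathepsin L, -0.12 (0.19). ST14 was -0.19 without control replicate 2 and -0.03 without the lane 7 controls. For CTSB, leaving out control replicate 4 gave -0.27 and leaving out DDR1 replicate 3 gave -1.39.

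Among proenzymes, ligands and receptors that plasmin or urokinase cut, 4 tested genes lay above 0 and 5 below, with a median of -0.04 and 0 calls. MMP9, gelatinase B, averaged 0.62 ± 0.588 CPM in DDR1 libraries and 3.58 ± 3.06 CPM in controls (log2 fold change -2.50, standard error 0.93, edgeR unadjusted p = 0.0231, adjusted p = 0.9998). Leaving out control replicate 1 gave -1.77 for MMP9 and leaving out the lane 7 controls gave -1.54, and its unadjusted edgeR p then exceeded 0.05. The collagenase gene MMP1 stood at 352 ± 268 CPM in DDR1 libraries and 361 ± 73.4 CPM in controls. MMP14, a collagenase of the cell membrane, stood at 395 ± 163 CPM in DDR1 libraries and 365 ± 184 CPM in controls. MST1, which encodes macrophage stimulating protein, had a log2 fold change of 0.54 (standard error 0.31), and F2R, the thrombin receptor, -0.14 (0.58).

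Transcription factors known at the PLAU and PLAUR promoters had 6 genes above 0 and 8 below, a median of -0.09 and 0 calls. FOS, a subunit of AP-1, averaged 32 ± 13.2 CPM in DDR1 libraries and 16.6 ± 6.9 CPM in controls (log2 fold change 0.95, standard error 0.36, edgeR unadjusted p = 0.0246, adjusted p = 0.9998). NFKB1 averaged 50.5 ± 7.47 CPM in DDR1 libraries and 69.5 ± 11.7 CPM in controls (log2 fold change -0.46, standard error 0.17, edgeR unadjusted p = 0.0242, adjusted p = 0.9998). ETS1 and ETS2 had log2 fold changes of -0.60 (standard error 0.31) and 0.40 (0.20), and SP1, the most abundant of this list, 0.06 (0.15). ETS1 was -0.32 without control replicate 1, -0.09 without the lane 7 controls and -0.96 without the controls that name no lane. The unadjusted edgeR p of FOS, NFKB1, LRPAP1 and EGFR also exceeded 0.05 in some fits with libraries left out. The sets of factors with values above and below 0 both held AP-1 and ETS genes.

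**Figure D5:**
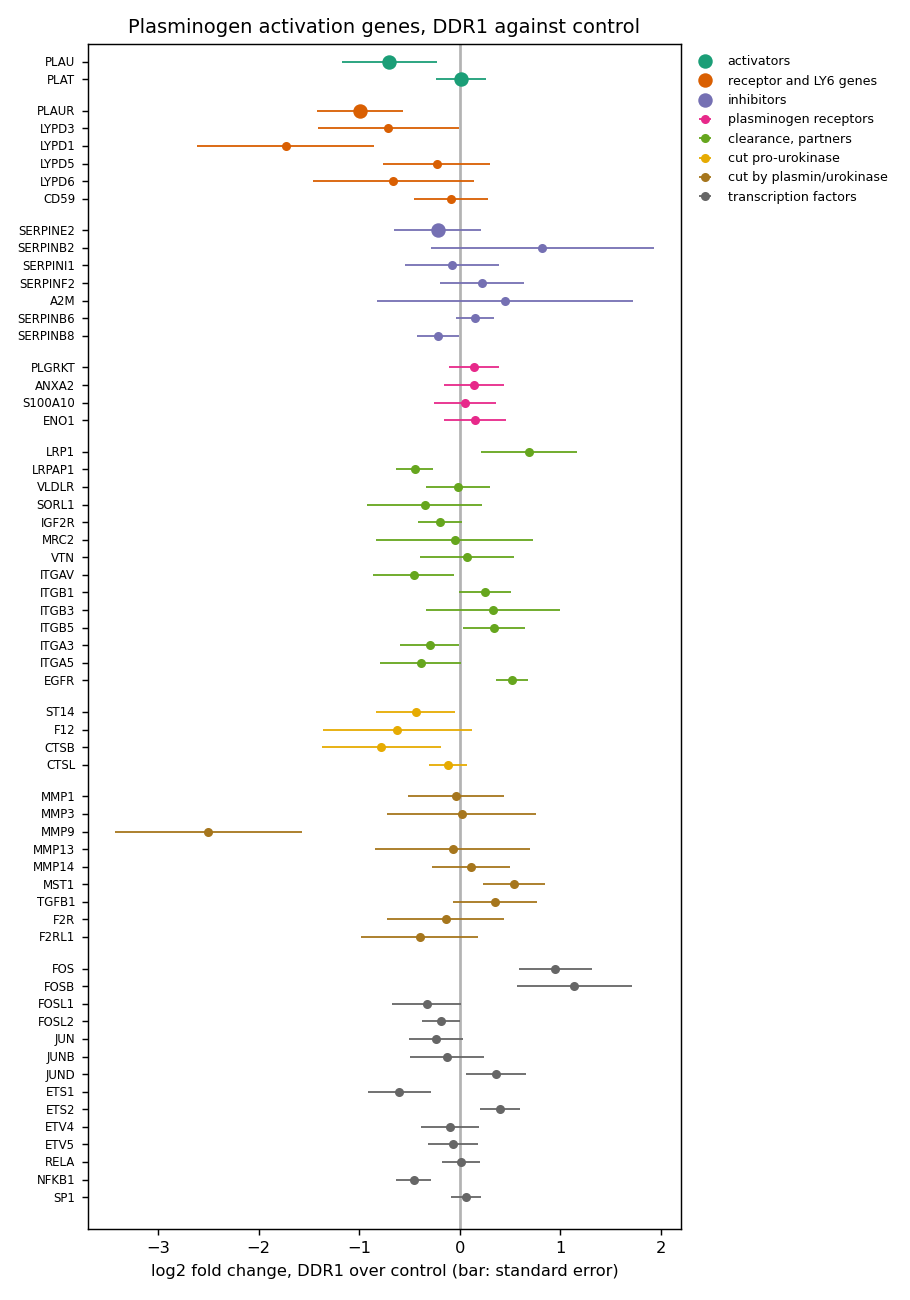
Log2 fold change, DDR1 over control, with its standard error for the 60 tested genes of 8 lists, grouped and coloured by list, with large points for the 4 members. Most bars cross 0, MMP9 lies farthest out at -2.50, and EGFR is the 1 gene whose libraries did not overlap between groups.

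Markers of other cell types were present at low to moderate summed levels, and in bulk tumours fewer cells of a type and less RNA per cell cannot be told apart. The fibroblast list summed to 3.54, 50.1, 49.9 and 10.7 CPM in DDR1 replicates 1 to 4, against 43.4, 22.3, 9.43 and 59.4 CPM in control replicates 1 to 4. DDR1 replicates 1 and 4, the libraries low in PLAU, PLAUR and SERPINE2, were also the lowest of their group here, with 3 and 2 of the 6 genes at 0. Control replicate 3 had a like low sum, with PLAU at 308 CPM and the highest PLAUR. Of the 6 genes, DCN, LUM and COL1A2 were under 1 CPM in every library, while COL1A1, COL3A1 and PDGFRA reached 14.2, 26.8 and 16.7 CPM in DDR1 libraries and 22.6, 26.4 and 33.1 CPM in controls. The endothelial list summed to 9.25 to 76.5 CPM in DDR1 libraries and 8.65 to 56.2 CPM in controls. Of its genes, KDR and CLDN5 were under 1 CPM in every library. PECAM1, VWF and CDH5 reached 21.8, 3.2 and 51.1 CPM in DDR1 libraries and 13.5, 1.55 and 41.5 CPM in controls. The list of macrophages and neutrophils summed to 50.3 to 269 CPM in DDR1 libraries and 21.6 to 150 CPM in controls. In that list PTPRC, CSF1R, ITGAM and ELANE were under 1 CPM in every library. S100A9, S100A8, CD68 and CD14 reached 171, 75.4, 46.3 and 5.79 CPM in DDR1 libraries and 93.6, 41.1, 37 and 5.1 CPM in controls. Skeletal muscle genes summed to 0.445 to 9.05 CPM in DDR1 libraries and 0.732 to 59.3 CPM in controls. Of these, ACTA1 and CKM were under 1 CPM in every library. MYH1 and MYH2 reached 5.7 and 3.1 CPM in DDR1 libraries and 36.5 and 21.6 CPM in controls. Adipocyte genes summed to 0.5 to 1.9 CPM in DDR1 libraries and 0.689 to 1.71 CPM in controls. Haemoglobin genes summed to at most 0.172 CPM in any library, with HBB at 0 in all 8. Reads of mouse cells can align to conserved human genes, and the part of these markers in the values of the members was not tested.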

How the data were processed

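The files held expected counts and TMM-normalized values for 8 libraries, 4 DDR1 and 4 control. Per the submitters' processing notes, FastQC 0.11.9, Trim Galore 0.6.4, STAR 2.7.5, RSEM 1.3.1 and GRCh38 were used, and the deposited expected counts are RSEM's estimated counts per gene. No source used here gives the annotation, the settings or whether mouse reads were removed. The authors' deposited normalized values are on a log2 scale, and served in an alternative run. The expected counts were rounded, filtered with filterByExpr (minimum count 10, 18973 genes left) and TMM-scaled, and DDR1 was tested against control with edgeR 4.0.16 (limma 3.58.1, DESeq2 1.42.0, R 4.3.3), adjusting by Benjamini-Hochberg over all genes. Log2 CPM used a prior count of 2. Of 58302 identifiers, 58039 matched GENCODE release 29, which gave names, coordinates and exon lengths. Between 169 and 11412 counts per library lay behind each member's values, and the intervals these counts allow cover counting error only.

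The members and the lists were chosen with earlier results of these data known. Named genes were the members, DDR1, in each pathway list the 3 highest in CPM and the 2 with the smallest p, any called gene, and the 3 genes most like each member. Some genes that this rule or the lists would include are not reported here. C10orf55 was added because it overlaps PLAU, and PLG, F12 and cell type markers, named to show levels, were added after their values were seen. The fit was also run on simulated data in which all genes had a common dispersion and changes were larger than those of the members. That run does not show how well changes of the members' size would be found. Alternatives were other scalings, tools and filters, leaving out libraries, summing libraries that share a title prefix, and library sizes without DDR1 and mitochondrial genes. Changing library sizes in this way gave the main values of the members and DDR1 again, because TMM scaling offsets such a change. That setting is therefore no separate check.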

Additional observations from a re-analysis of the deposited data

Results flagged for a closer look

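Within groups of 4 libraries, 3 values stood far from the rest by Dixon's test at the 95% level, and chance flags about 1 in 20 groups. The 3 genes are among the 41 named by rule, each with values in both groups. Whether 3 is more than chance would flag was not tested. SERPINB8 was lowest in DDR1 replicate 1, at 4.28 log2 CPM, where the next library had 4.87. ITGA3 was lowest in the same library, at 9.71 log2 CPM, where the next had 10.64. NFKB1 was highest in DDR1 replicate 2, at 5.95 log2 CPM, where the next had 5.58. No member was flagged.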

How the results depend on the processing

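No member and no gene of the 8 lists was called under the 11 other settings or the 8 fits with 1 library left out, and the count over all genes was 0 except for DESeq2, with 16. With 1 library left out, the log2 fold change ran from -1.17 to -0.44 for PLAU, -1.22 to -0.72 for PLAUR, -0.21 to 0.16 for PLAT, -0.62 to 0.07 for SERPINE2 and 1.05 to 1.79 for DDR1. DDR1 stood at 1.31 without the lane 7 controls where its edgeR p before adjustment was 0.0653, over 0.05, and it passed after adjustment in no fit. PLAT was -0.02 with limma-voom, -0.0043 with limma-trend, -0.23 without the controls that name no lane and -0.21 with title prefixes summed, and the cause was not tested. Without the controls that name no lane, ANXA2 was -0.16, ENO1 -0.14, S100A10 -0.27 and MMP1 0.05. With the lane 7 controls left out instead, ANXA2 was 0.53, ENO1 0.55, S100A10 0.50, MMP1 -0.08 and PLAT 0.33. With prefixes summed, ANXA2 was -0.16 and S100A10 -0.30. Without the lane 7 controls, SERPINB8 was 0.01, MMP14 -0.05, GALNT1 0.34, NPTN 0.26, SEMA3A 0.03 and C1QTNF1 0.0032, and NPTN was 0.0022 with no filter.

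Signs also turned with 1 library left out for CD59 (-0.28 to 0.19), LYPD3 (-1.18 to 0.28), ANXA2 (-0.01 to 0.39), ENO1 (-0.01 to 0.51), S100A10 (-0.16 to 0.24), MMP14 (-0.18 to 0.48), MMP1 (-0.64 to 0.26), F2R (-0.70 to 0.18), SP1 (-0.00075 to 0.14), GALNT1 (-0.31 to 0.04), NPTN (-0.23 to 0.18), SEMA3A (-0.34 to 0.18) and C1QTNF1 (-0.45 to 0.18). No paired analysis was possible because replicate numbers follow accession order and pair nothing.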
